A study of Mus musculus with 12 samples.

Results

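The genes examined were 10 genes of purinergic and adenosine signaling: the ATP-gated channels P2rx4 and P2rx7, the nucleotide receptors P2ry2, P2ry6, P2ry12, P2ry13 and P2ry14, the adenosine receptors Adora2a and Adora2b, and the ectonucleotidase Entpd1 (CD39). They were picked by symbol, 1 row each, from the 23361 gene symbols of the expression tables, and all 10 reached at least 1 FPKM (a level corrected for transcript length and for the number of mapped fragments) in at least 1 sample. The samples were 12 RNA-seq libraries of wild-type mouse bone marrow-derived macrophages (BMDMs), primary cells from mice aged 8 to 12 weeks that were differentiated over 6 days with L929 supernatant, a source of M-CSF. The cells received no stimulus (control), 24 h of IL-4 (20 ng/ml, group IL-4), 3 h of LPS (100 ng/ml by the labels, while the study's methods give a molar unit; group LPS), or the IL-4 treatment followed by the LPS treatment (IL-4+LPS), and each group held 3 replicates. IL-4 is the cytokine of alternative macrophage polarization, LPS is a bacterial cell wall component sensed through TLR4, and IL-4+LPS against LPS asked how earlier IL-4 exposure alters the inflammatory response.

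Cells release ATP, ADP, UTP, UDP and UDP-glucose when stressed or damaged, and macrophages read these nucleotides with P2X channels, which open on ATP binding, and with P2Y receptors, which are coupled to G proteins. Entpd1 on the cell surface cuts ATP and ADP down to AMP, and Nt5e (CD73) converts AMP to adenosine. Adenosine is sensed by a second receptor family, some members of which can restrain inflammatory cytokine release. In macrophages the channel formed by P2rx7 is best known as the ATP sensor upstream of the NLRP3 inflammasome.

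The samples were checked before the genes were compared. The macrophage markers Csf1r, Emr1, Cd68, Itgam, Lyz2, Mertk and Fcgr3, 7 of 7 found, were above 1 FPKM in every sample. Their summed level was 20000 to 21300 FPKM in control, 16000 to 17200 with LPS, 8210 to 8440 with IL-4 and 6920 to 7330 in IL-4+LPS, and Lyz2 alone ran from 4180 to 16500. The T cell genes Cd3d, Cd3e and Cd3g and the B cell genes Cd79a and Ms4a1 did not exceed 0.197 FPKM. The other T and B cell markers looked up were detected in every sample, Lck at 0.0511 to 3.36 FPKM and Cd79b at 0.486 to 4.28 FPKM. The 6 neutrophil and precursor markers found (S100a8, S100a9, Elane, Mpo, Camp and Ltf) were all detected, with summed levels of 325 to 862 FPKM in control, 217 to 406 with IL-4, 514 to 1040 with LPS and 430 to 851 in IL-4+LPS. The part of any of these markers in the results below was not tested. The treatments were visible in their known targets: Retnla was at 11.4 ± 7.19 FPKM in control and 12170 ± 751 in IL-4 (SD, n = 3), and Il1b was at 5.31 ± 1.02 in control and 1916 ± 632 in LPS. Replicate 1 stood apart: within a group its Pearson r with the other replicates was 0.954 to 0.962 over expressed rows, against 0.973 to 0.983 between replicates 2 and 3. Among the 10 genes, replicate 1 was the lowest of its group in all 4 groups for P2ry2, P2ry6, Adora2a and Adora2b, and the highest in all 4 for P2ry12. Relative sequencing depth, with control replicate 1 set to 1, ran from 0.991 to 3.3, and the 4 replicate 1 libraries were the shallowest of their groups, at 0.991 to 1.03. Since RNA of whole cultures was measured, fewer cells of a type and less RNA per cell cannot be told apart.

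In control BMDMs the levels of the 10 genes spanned 168 ± 4.37 FPKM for P2rx4 to 0.245 FPKM for Adora2a (mean, n = 3). FPKM is scaled to transcript length, so these levels can be set side by side between genes. P2rx4, P2ry6 and Entpd1 formed a top group, above 92.7% of all expressed rows or more. P2rx7, P2ry14 and P2ry2 were intermediate, P2ry12, P2ry13 and Adora2b lay between 2.03 and 3.43 FPKM, and Adora2a lay below 0.321 FPKM in every control sample. P2ry12 and P2ry13 were the only neighbours in this order whose replicates overlapped. After LPS the order was different: Adora2a was second behind P2rx4 at 40.6 ± 12.9 FPKM, and its replicates overlapped those of P2ry6. In IL-4+LPS the top gene was again P2rx4, followed by Adora2a and P2ry14, whose replicates overlapped.

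**Figure D1:**
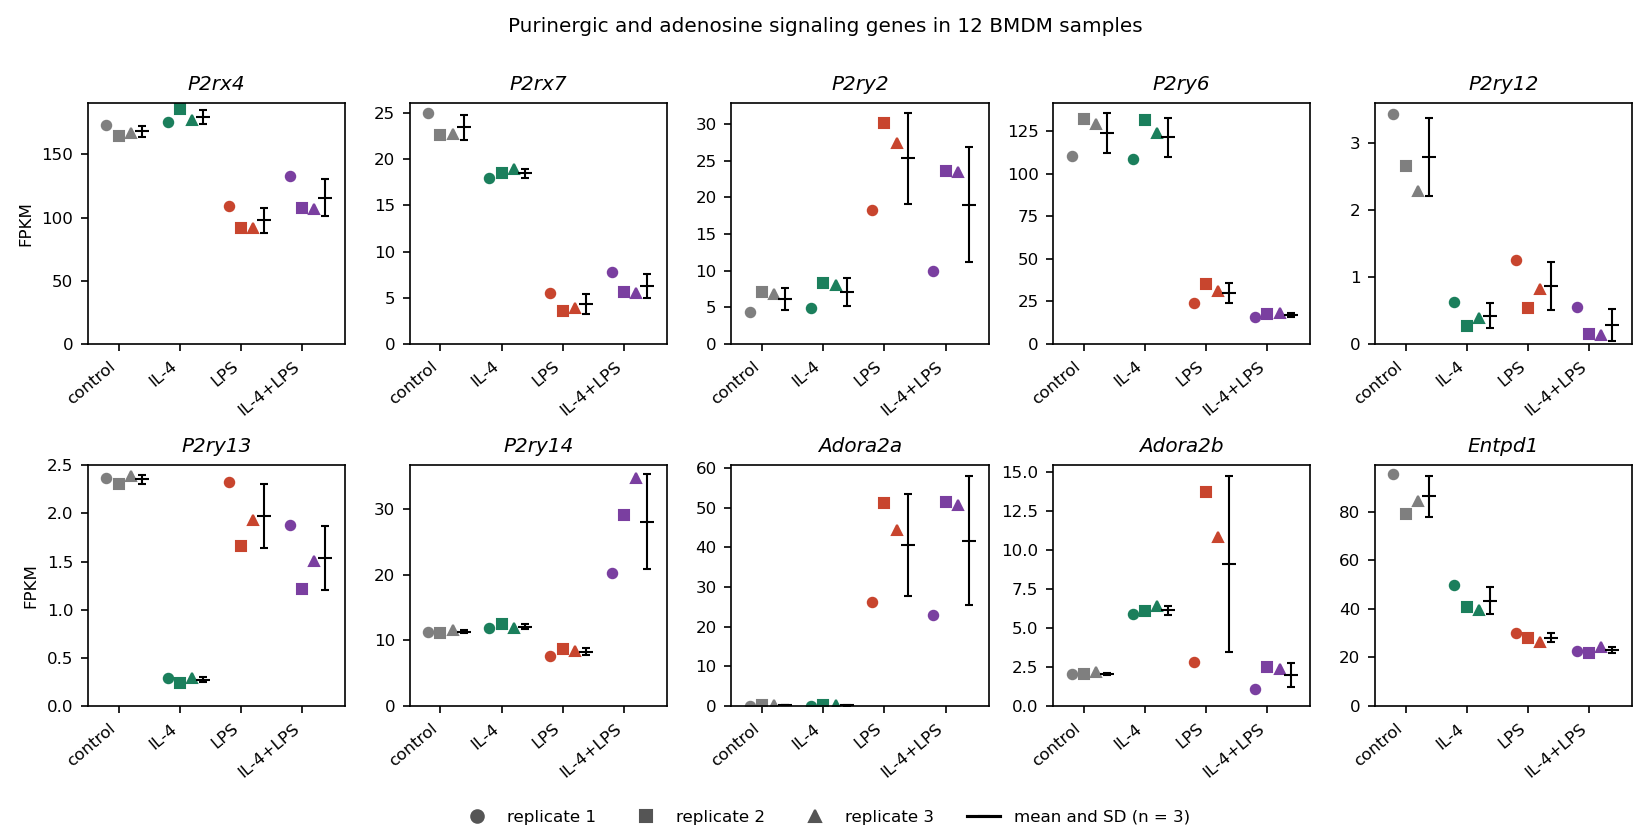
FPKM of each gene (linear axes that start at 0) in the 12 BMDM samples, by group; points are replicates 1 to 3 and the black mark is the mean with its SD (n = 3). Adora2a stays below 0.321 FPKM in control and IL-4 samples and lies between 23.0 and 51.3 FPKM in all LPS-treated samples, and P2ry14 is highest in IL-4+LPS.

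Calls in all comparisons came from limma on log2(FPKM + 1) over 11191 expressed rows and all 12 samples, with Benjamini-Hochberg adjustment within each comparison and a threshold of 0.05. A log2 difference on this scale understates the change of a gene with low values, and fold values given beside it are ratios of mean FPKM. The study describes the cells of this experiment as coming from individual animals in more than 1 experiment. Neither it nor the labels say which replicate number is which animal or experiment, so the p-values measure the spread between these samples, and whether replicate 1 is an experiment of its own is not known. LPS minus control and IL-4 minus control share the control samples, and the other comparisons share the LPS, IL-4 or IL-4+LPS samples, so their values are placed side by side without a test between them.

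LPS alone moved 9 of the 10 genes: P2ry2, Adora2a and Adora2b rose, and P2rx4, P2rx7, P2ry6, P2ry12, P2ry14 and Entpd1 fell. The background was large, since 16.9% of all tested rows were called higher and 57.7% lower in the same comparison. The median log2 difference was -0.598 over the 10 genes and -0.444 over all rows, so a gene at -0.444 moved like the typical row. For median scaling, each sample was divided by its median ratio to the geometric mean of all samples, over rows detected in every sample. With it, 51.1% of the called rows were higher instead of 22.6%. This scaling brought the median difference over all rows to 0.00781, so a nearly even split of calls is largely built into it. After IL-4, LPS moved 9 of the 10 genes as well (IL-4+LPS minus IL-4), with P2ry2, P2ry13, P2ry14 and Adora2a higher and P2rx4, P2rx7, P2ry6, Adora2b and Entpd1 lower. Here 15.0% of all rows were called higher and 57.9% lower, the median over all rows was -0.407 against -0.398 over the 10 genes, and the share of higher calls was 51.4% with median scaling and 20.6% without it.

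IL-4 alone moved 4 of the 10 genes: Adora2b rose, and P2ry12, P2ry13 and Entpd1 fell, against backgrounds of 16.0% of rows called higher and 21.0% lower. In IL-4+LPS minus LPS, P2rx7 and P2ry14 were higher and P2ry6, P2ry12 and Adora2b were lower, with 15.0% of rows called higher and 15.8% lower. The interaction, which is the LPS difference after IL-4 minus the LPS difference without it, was positive for P2rx7, P2ry13, P2ry14 and Entpd1 and negative for P2ry6 and Adora2b. For the interaction 4.58% of all rows were called positive and 4.63% negative. When the 4 replicate 1 samples were left out, an alternative added after seeing the data, 7 of the 10 genes were called in IL-4 minus control and 8 in IL-4+LPS minus LPS. The share of all rows called without these samples was not computed, so these counts have no background beside them. No call of the full fit on these 10 genes was lost in that fit. Testing all rows with no expression filter, by contrast, ended 8 calls of the 10 genes over the 5 comparisons, each of them with an adjusted p of at least 0.0135 in the main fit.

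**Figure D2:**
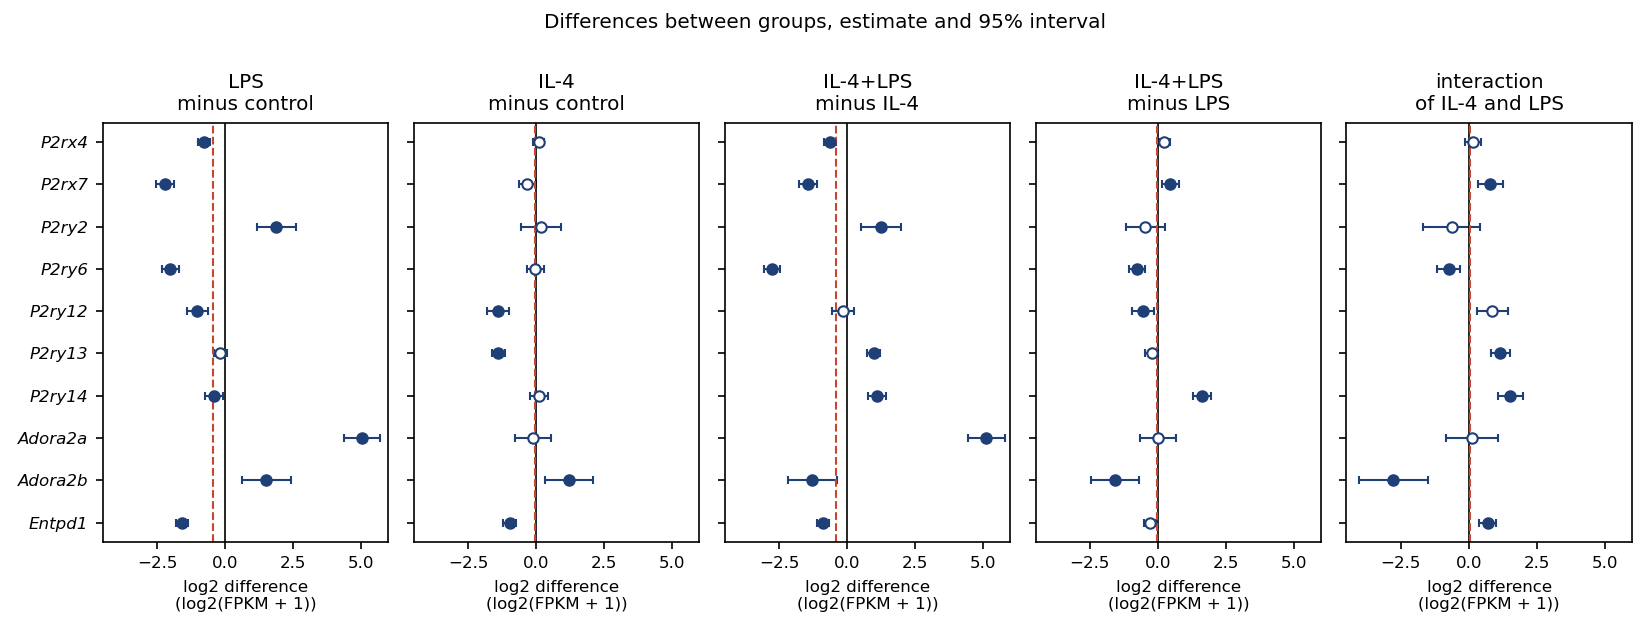
Log2 differences of the 10 genes on the log2(FPKM + 1) scale in the 5 comparisons, with 95% intervals (limma, 12 samples). Filled points passed an adjusted p of 0.05, open points did not, the solid line is 0 and the dashed red line is the median of all 11191 rows, which is -0.444 for LPS minus control. Adora2a has the largest difference of the 10 genes after LPS, 5.01, and Adora2b the largest negative interaction, -2.79.

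P2rx4 encodes an ATP-gated cation channel of the cell surface and lysosome. Its FPKM was 173, 164 and 167 in control replicates 1 to 3, 176, 186 and 177 in IL-4, 110, 91.7 and 91.9 in LPS, and 133, 107 and 107 in IL-4+LPS. Every LPS-treated sample was below every sample without LPS. The log2 difference was -0.78 (standard error 0.0957, adjusted p = 2.83e-05, limma) for LPS minus control and -0.64 (adjusted p = 0.000147) for IL-4+LPS minus IL-4. Relative to the median of all rows these were -0.34 and -0.23, and with median scaling the second difference was -0.11 and no longer passed (adjusted p = 0.264). IL-4+LPS minus LPS was 0.24 (95% interval 0.0283 to 0.453, adjusted p = 0.0829), with overlapping groups, and it passed without LPS replicate 1 (0.32, adjusted p = 0.0279), without all replicate 1 samples (0.22, 0.00328), with median scaling (0.26, 0.0346) and with the replicate number as a block (0.0293).

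P2rx7, the channel whose opening by ATP triggers potassium efflux and inflammasome assembly, fell with LPS in both settings. Its control values were 25.0, 22.6 and 22.7 FPKM, its IL-4 values 17.9, 18.5 and 18.9, its LPS values 5.51, 3.55 and 3.90, and its IL-4+LPS values 7.78, 5.61 and 5.50. LPS lowered the mean 5.43-fold (log2 difference -2.22, standard error 0.144, adjusted p = 2.93e-07), and LPS after IL-4 lowered it 2.93-fold (-1.43, adjusted p = 8.02e-06). IL-4+LPS and LPS samples overlapped in part, with a difference of 0.46 (adjusted p = 0.0333), and the interaction was 0.79 (standard error 0.203, adjusted p = 0.0376). Both calls were close to the threshold. The first was lost without LPS replicate 2, LPS replicate 3 or IL-4+LPS replicate 1 (adjusted p = 0.0927 to 0.118) and with only these 2 groups in the fit (0.138), and the interaction was lost without any 1 of 9 samples (adjusted p = 0.0505 to 0.0971), the exceptions being LPS replicate 1 and IL-4+LPS replicates 1 and 3. All IL-4 samples were below all control samples, but the difference of -0.33 (95% interval -0.646 to -0.00813) did not pass the threshold (adjusted p = 0.102). It passed without LPS replicate 1 (0.0431), without all replicate 1 samples (0.00822), with quantile normalization (0.0452), with only these groups in the fit (0.00949) and with the replicate number as a block (0.0336).

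The balance between the pair of channels moved with these changes. The ratio of P2rx4 to P2rx7 FPKM was 7.18 ± 0.239 in control, 9.73 ± 0.343 with IL-4, 23.1 ± 3.01 with LPS and 18.6 ± 1.28 in IL-4+LPS (SD, n = 3). P2rx4 was the more abundant in all 12 samples, and the LPS-treated samples, at 17.1 to 25.9, did not overlap the others, which lay between 6.91 and 10. The genes lie 16124 bases apart on the plus strand of chromosome 5 (mm10), P2rx7 at chr5:122643911-122691432 and P2rx4 at chr5:122707557-122729042. In the reference transcripts, 2.16% of the 50-base words of P2rx4 and 1.44% of those of P2rx7 occur in other genes, so few of their reads could be shared. The other P2X genes P2rx1, P2rx2, P2rx3, P2rx5 and P2rx6 stayed below 1 FPKM in all samples, the highest being P2rx5 at 0.845 FPKM in IL-4+LPS replicate 1.

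P2ry2 and P2ry6, which lie 32205 bases apart on the minus strand of chromosome 7 (mm10 chr7:100996572-101011991 and chr7:100937634-100964366), moved in opposite directions after LPS. P2ry2 is the receptor for ATP and UTP that guides phagocytes towards dying cells. Its values were 4.40, 7.08 and 6.84 FPKM in control, 4.85, 8.31 and 8.03 with IL-4, 18.3, 30.2 and 27.4 with LPS, and 9.99, 23.6 and 23.4 in IL-4+LPS. LPS raised the mean 4.14-fold (log2 difference 1.88, standard error 0.33, adjusted p = 0.000384), and LPS after IL-4 raised it 2.69-fold (1.25, standard error 0.33, adjusted p = 0.00583). Replicate 1 was the lowest in each group, yet in both comparisons the groups did not overlap. IL-4+LPS was below LPS in each of the 3 replicate numbers, with overlapping groups and a difference of -0.46 (95% interval -1.19 to 0.273, adjusted p = 0.332). Without all replicate 1 samples that difference was -0.28 and passed (adjusted p = 0.00849), and so did the interaction, which was -0.63 (adjusted p = 0.467) over 12 samples and -0.48 (0.00811) without them. With the replicate number as a block both passed as well (adjusted p = 0.0131 and 0.0313).

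P2ry6, the UDP receptor linked to phagocytosis, was among the most abundant of the 10 genes without LPS. Its values were 110, 132 and 129 FPKM in control, 109, 131 and 124 with IL-4, 23.9, 35.5 and 31.0 with LPS, and 15.7, 17.4 and 18.3 in IL-4+LPS. IL-4 alone left it at a difference of -0.03 (95% interval -0.331 to 0.271, adjusted p = 0.892), a value that is 0.01 with median scaling. LPS lowered it 4.11-fold (log2 difference -2.02, standard error 0.136, adjusted p = 3.8e-07) and LPS after IL-4 lowered it 7.1-fold (-2.76, adjusted p = 4.96e-08). No IL-4+LPS sample reached the lowest LPS sample, and the difference between them was -0.77 (standard error 0.136, adjusted p = 0.00167). The interaction of -0.74 passed narrowly (adjusted p = 0.0384), and it was lost without any 1 of 10 samples (adjusted p = 0.0578 to 0.0961), IL-4 replicate 1 and LPS replicate 1 being the exceptions, and with quantile normalization (-0.56, adjusted p = 0.0659).

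P2ry12, P2ry13 and P2ry14 are related receptor genes that lie next to each other on the minus strand of chromosome 3, within 148207 bases (mm10 chr3:59216271-59262831, chr3:59207894-59210882 and chr3:59114625-59130624). P2ry12 and P2ry13 bind ADP, P2ry12 being known from platelets and microglia, and P2ry14 binds UDP-glucose and UDP. All lie inside Med12l, which is on the other strand, and 0.353% of the exonic bases of P2ry12 overlap Med12l exons, while the libraries did not record strand. Med12l did not exceed 0.136 FPKM, and the neighbouring Gpr171 and Igsf10 did not exceed 0.864 FPKM in any sample. The responses of P2ry12, P2ry13 and P2ry14 are given gene by gene.

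P2ry12 and P2ry13 fell together after IL-4. P2ry12 was at 3.43, 2.65 and 2.28 FPKM in control, 0.627, 0.263 and 0.38 with IL-4, 1.25, 0.538 and 0.816 with LPS, and 0.550, 0.154 and 0.138 in IL-4+LPS. IL-4 lowered the mean 6.58-fold (log2 difference -1.41, standard error 0.18, adjusted p = 0.00019). LPS lowered it 3.22-fold (-1.03, adjusted p = 0.000388), a call that was lost with quantile normalization (-0.46, adjusted p = 0.0502). IL-4+LPS minus LPS, at -0.54 (adjusted p = 0.0433), overlapped between groups and did not pass without any 1 of 7 samples (control replicate 2, IL-4 replicates 2 and 3, LPS replicates 1 and 3, IL-4+LPS replicates 2 and 3; adjusted p = 0.0509 to 0.145) or with only these 2 groups in the fit (0.0887). IL-4+LPS minus IL-4 was -0.16 (95% interval -0.559 to 0.24, adjusted p = 0.44), and it was 0.06 with quantile normalization. The interaction of 0.87 missed the threshold (adjusted p = 0.061) and passed without LPS replicate 1 (1.01, adjusted p = 0.0297), without all replicate 1 samples (0.85, 0.00964) and with the replicate number as a block (0.0026).

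P2ry13 was at 2.36, 2.31 and 2.39 FPKM in control, 0.288, 0.242 and 0.288 with IL-4, 2.32, 1.66 and 1.93 with LPS, and 1.88, 1.22 and 1.51 in IL-4+LPS. The IL-4 samples stood alone, each below 0.289 FPKM, while every other sample was at 1.215 FPKM or more. IL-4 lowered the mean 8.63-fold (log2 difference -1.40, standard error 0.109, adjusted p = 5.89e-06). LPS after IL-4 raised it 5.62-fold (0.99, standard error 0.109, adjusted p = 1.61e-05), a call lost under the 2-fold minimum, which applies to the log2(FPKM + 1) scale. LPS alone gave -0.18 (95% interval -0.422 to 0.0618, adjusted p = 0.157), a difference that was positive with median scaling (0.20, adjusted p = 0.118) and with quantile normalization (0.41, adjusted p = 0.0022). Without all replicate 1 samples it was negative and passed (-0.26, adjusted p = 0.0289). The interaction was 1.17 (standard error 0.154, adjusted p = 0.00122) and passed in every alternative run. Between IL-4+LPS and LPS the groups overlapped, at -0.23 (adjusted p = 0.138), and the difference passed only without IL-4+LPS replicate 1 (-0.33, adjusted p = 0.0366) among the samples left out in turn. The summed FPKM of P2ry12 and P2ry13 was 5.14 ± 0.581 in control, 0.696 ± 0.207 with IL-4, 2.84 ± 0.69 with LPS and 1.81 ± 0.55 in IL-4+LPS. This sum leaves out P2ry1, an expressed ADP receptor outside the 10 genes. P2ry1 was at 1.93 ± 0.502 FPKM in control, 9.65 ± 1.02 with IL-4, 0.358 ± 0.0333 with LPS and 0.857 ± 0.187 in IL-4+LPS.

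P2ry14 did not pass the threshold with IL-4 alone and was highest in IL-4+LPS. It was at 11.3, 11.1 and 11.6 FPKM in control, 11.9, 12.6 and 11.8 with IL-4, 7.68, 8.74 and 8.34 with LPS, and 20.3, 29.2 and 34.7 in IL-4+LPS. The IL-4+LPS samples were above all others. LPS after IL-4 raised the mean 2.32-fold over IL-4 (log2 difference 1.12, standard error 0.149, adjusted p = 6.12e-05), and IL-4+LPS was 3.4-fold above LPS (1.62, standard error 0.149, adjusted p = 1.93e-05). The interaction was 1.53 (standard error 0.211, adjusted p = 0.00151). These 3 calls passed in every alternative run. IL-4 alone gave 0.09 (95% interval -0.241 to 0.419, adjusted p = 0.682). LPS alone gave -0.41 (adjusted p = 0.0265), which is 0.03 above the median of all rows, was 0.09 with median scaling (adjusted p = 0.664), and was lost without any 1 of control replicates 1 to 3 and LPS replicates 1 and 3 (adjusted p = 0.0534 to 0.076).

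**Figure D3:**
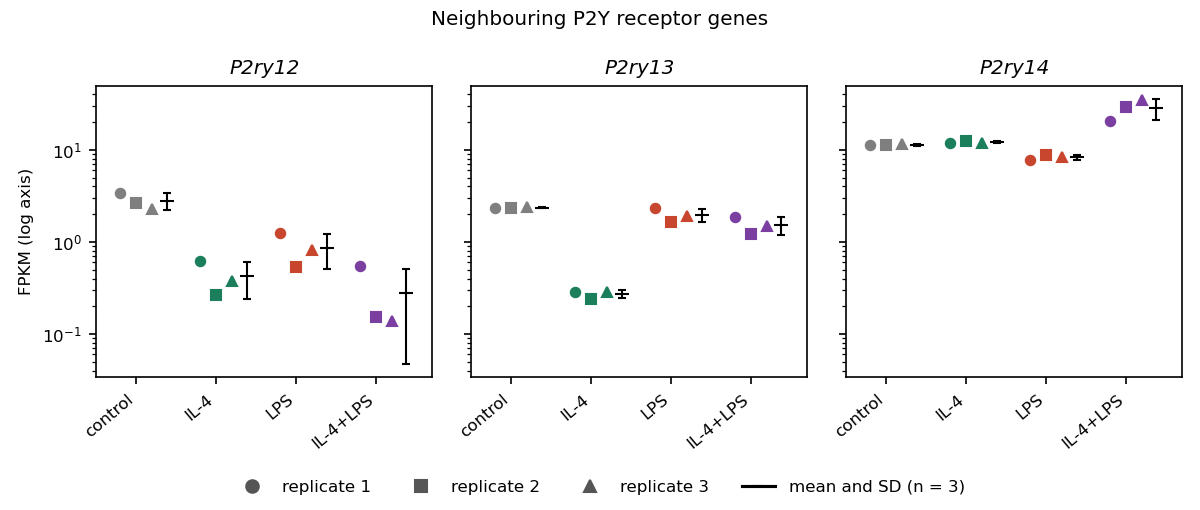
FPKM of the neighbouring genes P2ry12, P2ry13 and P2ry14 on a common log axis, by group; points are replicates 1 to 3 and the black mark is the mean with its SD (n = 3). P2ry13 drops to 0.242 to 0.288 FPKM in IL-4 samples alone, P2ry12 is low in all treated groups, and P2ry14 rises to 20.3 to 34.7 FPKM in IL-4+LPS.

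Because P2ry12 and P2ry13 fell together after IL-4, and Adora2b had the largest interaction, their promoter sequences are shown. Each is the 250 bases before a RefSeq start site (GRCm38.p6, the same assembly as mm10), read 5′ to 3′ on the gene's strand, and capitals mark a match to a searched motif. P2ry12 is chr3:59262986-59263235 on the minus strand, P2ry13 is chr3:59210883-59211132 on the minus strand, and Adora2b is chr11:62248734-62248983 on the plus strand.
P2ry12: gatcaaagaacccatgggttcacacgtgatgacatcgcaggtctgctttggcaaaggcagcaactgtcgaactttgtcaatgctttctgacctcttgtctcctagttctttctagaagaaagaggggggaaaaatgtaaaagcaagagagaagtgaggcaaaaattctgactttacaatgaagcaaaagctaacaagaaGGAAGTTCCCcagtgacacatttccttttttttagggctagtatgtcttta
P2ry13: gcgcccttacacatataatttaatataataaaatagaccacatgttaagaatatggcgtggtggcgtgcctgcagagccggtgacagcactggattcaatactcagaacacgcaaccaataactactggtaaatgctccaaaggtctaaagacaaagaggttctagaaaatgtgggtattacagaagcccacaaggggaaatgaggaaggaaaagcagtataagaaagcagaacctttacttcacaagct
Adora2b: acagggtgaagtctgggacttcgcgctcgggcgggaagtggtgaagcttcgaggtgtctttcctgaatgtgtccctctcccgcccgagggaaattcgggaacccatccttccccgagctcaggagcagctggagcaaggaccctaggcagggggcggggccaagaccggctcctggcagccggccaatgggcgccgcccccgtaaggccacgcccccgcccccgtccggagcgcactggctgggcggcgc
The motifs searched on both strands were the STAT site TTCNNNGAA, the STAT6 site, which has 4 bases in place of 3 between TTC and GAA, the NF-kappa-B consensus, the AP-1 site TGANTCA and the cAMP response element TGACGTCA. Of the 10 genes, 8 had such a window, and Adora2a and P2ry6 had none in the table used. The NF-kappa-B consensus was matched once, in P2ry12 from -51 to -42 on the opposite strand, and the AP-1 site once, in P2rx7 from -249 to -243. No window of the 8 held either STAT site or the cAMP response element. Among 32851 windows of the same length, 7.25% held the NF-kappa-B consensus, 6.75% the AP-1 site, 7.02% and 5.85% the STAT sites and 1.55% the cAMP response element, so these counts are a description of the letters in the windows.

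Among the P2Y receptors, the makeup of the summed FPKM of the 5 genes moved from P2ry6 to a mix. P2ry6 held 84.5 ± 0.727% of it in control, 85.9 ± 0.129% with IL-4, 45.2 ± 0.945% with LPS and 26.7 ± 4.94% in IL-4+LPS (SD, n = 3). P2ry14 held 7.77 ± 0.708%, 8.62 ± 0.695%, 12.6 ± 1.56% and 42.4 ± 1.91% in the same order. P2ry6 exceeded P2ry2 20.9 ± 3.65-fold in control and 1.2 ± 0.091-fold in LPS. In IL-4+LPS the ratio of P2ry6 to P2ry2 was 0.734 to 1.57, so neither gene was the higher in all 3 samples.

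Adora2a had the largest response to LPS of the 10 genes. It encodes an adenosine receptor of high affinity that couples to Gs and raises cAMP. Its values were 0.143, 0.321 and 0.271 FPKM in control, 0.0718, 0.201 and 0.184 with IL-4, 26.2, 51.2 and 44.4 with LPS, and 23.0, 51.3 and 50.7 in IL-4+LPS. LPS raised the mean 166-fold (log2 difference 5.01, standard error 0.3, adjusted p = 1.7e-07), above 99.5% of all rows, and LPS after IL-4 raised it by 5.13 on the log2 scale (adjusted p = 1.72e-07). Replicate 1 had the lowest value in every group, and the LPS-treated samples were nonetheless far from the others. The LPS and IL-4+LPS values overlapped, and their difference was 0.0041 (95% interval -0.661 to 0.669, adjusted p = 0.998). The T cell gene Lck was also higher with LPS, which gave a summed T cell marker level of 0.627 to 3.41 FPKM in LPS and 0.551 to 2.37 in IL-4+LPS against at most 0.302 elsewhere, while Cd3d, Cd3e and Cd3g stayed at 0.197 FPKM or less. The part of such cells in the Adora2a result was not tested beyond these values.

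Adora2b, an adenosine receptor of lower affinity, rose after either treatment alone and fell when LPS followed IL-4. It was at 2.03, 2.05 and 2.15 FPKM in control, 5.87, 6.07 and 6.43 with IL-4, 2.85, 13.7 and 10.8 with LPS, and 1.13, 2.52 and 2.39 in IL-4+LPS. All samples of IL-4 alone and of LPS alone were above all control samples, and the IL-4+LPS samples overlapped the control range. IL-4 raised the mean 2.95-fold (log2 difference 1.21, standard error 0.404, adjusted p = 0.0379) and LPS raised it 4.4-fold (1.51, standard error 0.404, adjusted p = 0.00595). LPS after IL-4 lowered it (-1.28, adjusted p = 0.0151), and IL-4+LPS was 4.54-fold below LPS (-1.57, adjusted p = 0.0135). The interaction, -2.79 (standard error 0.572, adjusted p = 0.0127), passed in every alternative run. The single comparisons were less firm. IL-4 minus control was lost without any 1 control or IL-4 sample or IL-4+LPS replicate 3 (adjusted p = 0.0509 to 0.0974). It was also lost with median scaling (0.0538) and with no expression filter (0.11). IL-4+LPS minus IL-4 was lost without IL-4+LPS replicate 1 (-1.04, adjusted p = 0.0566), with median scaling (-0.87, 0.103), with quantile normalization (-0.78, 0.12) and with no expression filter (0.052). IL-4+LPS minus LPS was lost without LPS replicate 3 (-1.36, adjusted p = 0.0548), with only these 2 groups in the fit (0.0891) and with no expression filter.

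The balance between Adora2a and Adora2b therefore changed with LPS. Adora3, an expressed adenosine receptor outside the 10 genes, is not part of the values below. Its mean was 1.04 FPKM in control, 0.629 with IL-4, 1.92 with LPS and 0.089 in IL-4+LPS. Adora2a made up 10.4 ± 3.54% of the Adora2a and Adora2b FPKM in control, 2.4 ± 1.05% with IL-4, 83.2 ± 6.15% with LPS and 95.4 ± 0.098% in IL-4+LPS (SD, n = 3). The lowest IL-4+LPS share, 95.3%, was above the highest LPS share, 90.2%. The summed FPKM of both receptors was 2.32 ± 0.133 in control, 6.28 ± 0.338 with IL-4, 49.7 ± 18.6 with LPS and 43.7 ± 16.9 in IL-4+LPS. Adora2a lies at chr10:75316943-75334788 and Adora2b at chr11:62248984-62266452 (mm10), both on the plus strand.

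**Figure D4:**
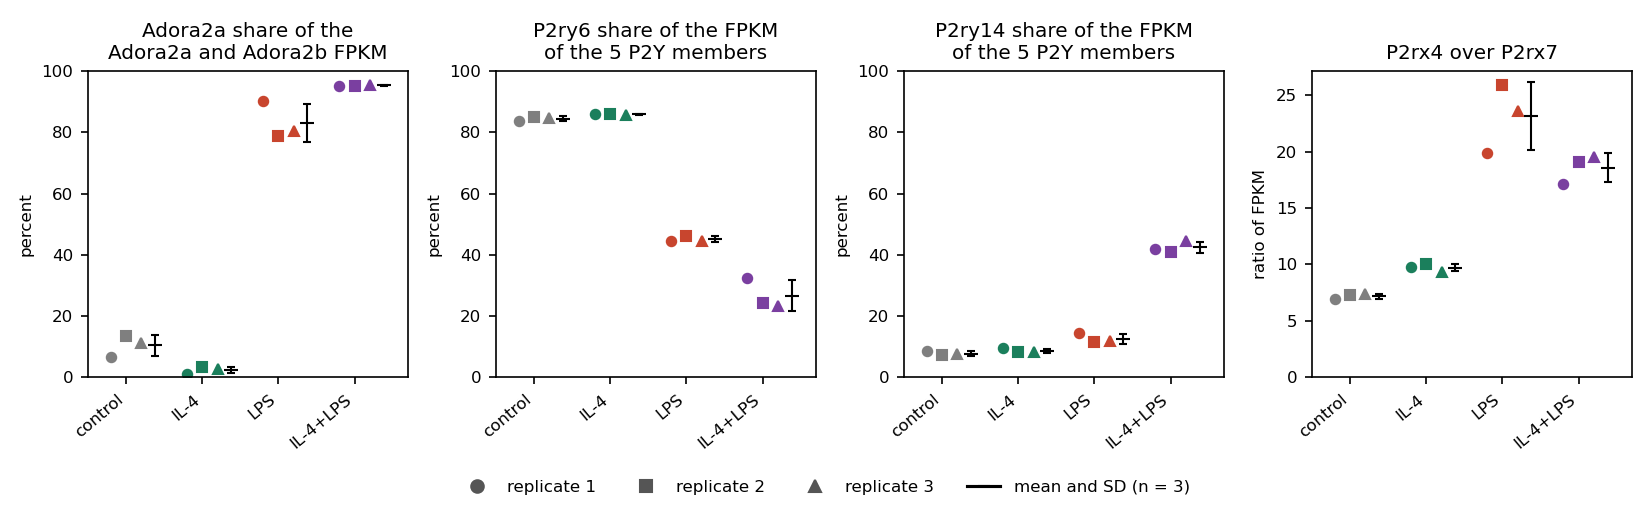
Shares and ratios of FPKM within each sample, by group, on linear axes from 0 (percent, or a ratio for P2rx4 over P2rx7); points are replicates 1 to 3 and the black mark is the mean with its SD (n = 3). The Adora2a share is at most 13.5% without LPS and at least 78.8% with it, P2ry6 falls from 84.5% of the P2Y sum in control to 26.7% in IL-4+LPS, and P2ry14 reaches 42.4%.

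Entpd1, the enzyme that clears extracellular ATP and ADP, fell with each treatment. It was at 95.5, 79.0 and 84.1 FPKM in control, 49.8, 40.6 and 39.6 with IL-4, 29.9, 28.1 and 26.5 with LPS, and 22.7, 21.9 and 24.3 in IL-4+LPS. No 2 groups overlapped. IL-4 lowered the mean 1.99-fold (log2 difference -0.98, standard error 0.1, adjusted p = 3.98e-05) and LPS lowered it 3.06-fold (-1.58, adjusted p = 2.61e-07), which is -1.13 relative to the median of all rows. After IL-4, LPS lowered it 1.88-fold (-0.88, adjusted p = 2e-05), or -0.47 relative to the median of all rows and -0.37 with median scaling (adjusted p = 0.0135). The interaction was 0.70 (standard error 0.142, adjusted p = 0.0122). IL-4+LPS minus LPS was -0.28 (95% interval -0.505 to -0.0592, adjusted p = 0.0562), and it passed without control replicate 1 (adjusted p = 0.0433), without IL-4 replicate 1 (0.0249), without all replicate 1 samples (-0.23, 0.023), with only these groups in the fit (0.0406) and with the replicate number as a block (0.0152). Entpd1 lies at chr19:40659794-40741602 on the plus strand.

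The genes with the most similar profiles to the pair with the largest interactions among the 10 genes were looked up over the 12 samples and 11181 other rows. Adora2b was followed most closely by the nuclear import receptor Ipo5 (Pearson r = 0.93), by Tiam1 (0.919), an activator of Rac, and by the splicing factor Srsf6 (0.911). P2ry14 was followed by the endocytic adaptor Snx9 (0.978), by Ncdn (0.961) and by the chemokine Ccl17 (0.949), whose mean FPKM was 0.121 in control, 2.72 with IL-4, 0.317 with LPS and 64.0 in IL-4+LPS. These values describe samples that share treatments and libraries. Of the dendritic cell markers, Zbtb46 also moved with P2ry14: the summed level of Flt3, Zbtb46 and Xcr1 was 2.18 to 3.03 FPKM in IL-4+LPS and 0.184 to 0.817 in the other groups, while Flt3 and Xcr1 did not exceed 0.205 FPKM. The summed level of the B cell markers Cd79a, Cd79b and Ms4a1, most of it Cd79b, was 2.11 to 4.36 FPKM in IL-4+LPS, 0.717 to 1.02 in LPS, 0.829 to 1.15 with IL-4 and 2.01 to 3.28 in control. The part of these genes in the P2ry14 result was not tested.

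The rest of the pathway was followed with a list of 34 genes for receptors, nucleotide hydrolases, adenosine metabolism, nucleoside transport and ATP release. Of these, 20 genes were expressed, in 21 rows. LPS raised 5 and lowered 13 of the 21 rows (23.8% and 61.9%), near the 16.9% and 57.7% of all rows. IL-4 raised 5 and lowered 6 (23.8% and 28.6%, beside 16.0% and 21.0% of all rows), and LPS after IL-4 raised 4 and lowered 13 (19.0% and 61.9%, beside 15.0% and 57.9%). IL-4+LPS minus LPS was higher for 1 and lower for 6 (4.76% and 28.6%, beside 15.0% and 15.8%). The interaction was negative for 6 rows and positive for 0 (28.6% and 0%, beside 4.63% of all rows called negative and 4.58% positive). At an unadjusted p under 0.05 in limma, 7 rows were negative and 0 positive. The share of all rows at that unadjusted threshold was not computed, so this count has no background beside it. The medians of the list were -0.579 for LPS minus control, -0.0843 for IL-4 minus control and -0.618 for IL-4+LPS minus IL-4, beside -0.444, -0.049 and -0.407 for all rows. They were -0.124 for IL-4+LPS minus LPS and -0.0187 for the interaction, beside -0.0307 and 0.0392. Nt5e, the enzyme that forms adenosine from AMP, was at or below 0.0497 FPKM in all samples.

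The expressed genes of the list that share a role with the 10 genes were P2ry1, Adora3, Enpp1 and Acpp. P2ry1, another ADP receptor, moved opposite to P2ry12 and P2ry13 after IL-4: it was at 1.35, 2.28 and 2.15 FPKM in control and 10.8, 8.79 and 9.38 in IL-4 (log2 difference 1.87, standard error 0.134, adjusted p = 3.08e-06). LPS alone lowered it (-1.09, adjusted p = 2.76e-05), as did LPS after IL-4 (-2.52, adjusted p = 8.3e-08), and its interaction was -1.43 (adjusted p = 0.00122). IL-4+LPS samples, at 0.642 to 0.979 FPKM, were above LPS samples, at 0.329 to 0.394 (0.45, adjusted p = 0.0275), a call that was lost without any 1 of LPS replicates 1 to 3 or IL-4+LPS replicates 1 and 3 (adjusted p = 0.0575 to 0.0868). The adenosine receptor Adora3 was at 1.13, 1.89 and 2.73 FPKM in LPS and 0.0826, 0 and 0.184 in IL-4+LPS (-1.39, standard error 0.189, adjusted p = 0.000312). Its rise after LPS alone (0.49, adjusted p = 0.0375) was lost without any 1 of control replicates 1 and 3 and LPS replicates 2 and 3 (adjusted p = 0.0742 to 0.156), with a pseudocount of 0.1 (0.125), with only these groups in the fit (0.0845), with no expression filter (0.0901) and with the replicate number as a block (0.051). LPS after IL-4 lowered it (-0.57, adjusted p = 0.0184), a call lost with median scaling (0.0703), with quantile normalization (0.101), with no expression filter (0.0503), without IL-4 replicate 1 (0.0674) or without IL-4+LPS replicate 2 (0.0608). Enpp1, which splits ATP to AMP and pyrophosphate, fell after LPS with (-0.99, adjusted p = 8.02e-06) and without (-1.06, adjusted p = 3.88e-06) IL-4. Acpp, a phosphatase that acts on AMP, passed in no comparison over the 12 samples, while IL-4+LPS minus LPS passed without IL-4+LPS replicate 1 (1.10, adjusted p = 0.0297) and with the replicate number as a block (0.73, 0.00544).

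Other genes of the list moved as well. After LPS the largest rises were those of the connexin Gja1, a hemichannel for ATP release, from 0.132 ± 0.0551 to 15.8 ± 5.57 FPKM (SD, n = 3, log2 difference 3.83, adjusted p = 2.04e-06), and of the purine nucleoside phosphorylases Pnp2 (3.20, adjusted p = 1.45e-09) and Pnp (3.09, adjusted p = 7e-09). Pnp and Pnp2 are neighbouring, closely related copies between which reads can be split, so their separate values are uncertain. The largest falls were those of the lysosomal nucleoside transporter Slc29a3 (-2.61, adjusted p = 8.61e-06), the ATP release channel Panx1 (-1.43, adjusted p = 0.000496) and the nucleoside diphosphatase Entpd6 (-1.39, adjusted p = 1e-05). After IL-4 the rises next to P2ry1 were those of the transporter Slc29a2 (0.68, adjusted p = 0.0172) and of Ahcy (0.53, adjusted p = 0.0319), and the falls were those of Panx1 (-0.93, adjusted p = 0.0181), the concentrative transporter Slc28a2 (-0.71, adjusted p = 0.00608) and adenosine deaminase, Ada (-0.69, adjusted p = 0.00466). The calls of Slc29a2 (without any 1 of 3 samples), Ahcy (any 1 of 4) and Panx1 (control replicate 3, adjusted p = 0.0518) were lost when samples were left out in turn.

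Within IL-4-treated cells, LPS raised Pnp2 (2.52, adjusted p = 3.92e-09), Pnp (2.44, adjusted p = 3.11e-08) and Gja1 (2.05, adjusted p = 0.000227) and lowered Slc29a3 (-2.68, adjusted p = 8.64e-06), P2ry1 and Entpd6 (-1.30, adjusted p = 1.97e-05). IL-4+LPS minus LPS was lowest for Gja1, at 1.47, 5.75 and 3.7 FPKM in IL-4+LPS against 9.91, 21.0 and 16.4 in LPS (-1.91, standard error 0.328, adjusted p = 0.00142). Slc28a2 followed, at 3.33, 3.57 and 2.76 FPKM against 8.53, 13.7 and 12.5 (-1.56, adjusted p = 4.6e-05). In both genes the groups did not overlap. The interaction was -1.78 for Gja1 (adjusted p = 0.0391) and -1.06 for Adora3 (adjusted p = 0.0342), and each was lost without any 1 of 9 samples (adjusted p = 0.0658 to 0.0957 for Gja1 and 0.0507 to 0.0803 for Adora3). That of Gja1 was also lost with a pseudocount of 0.1 (-1.385, adjusted p = 0.246), with no expression filter (0.108) and with quantile normalization (0.0521). That of Adora3 was also lost with no expression filter (0.0818).

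**Figure D5:**
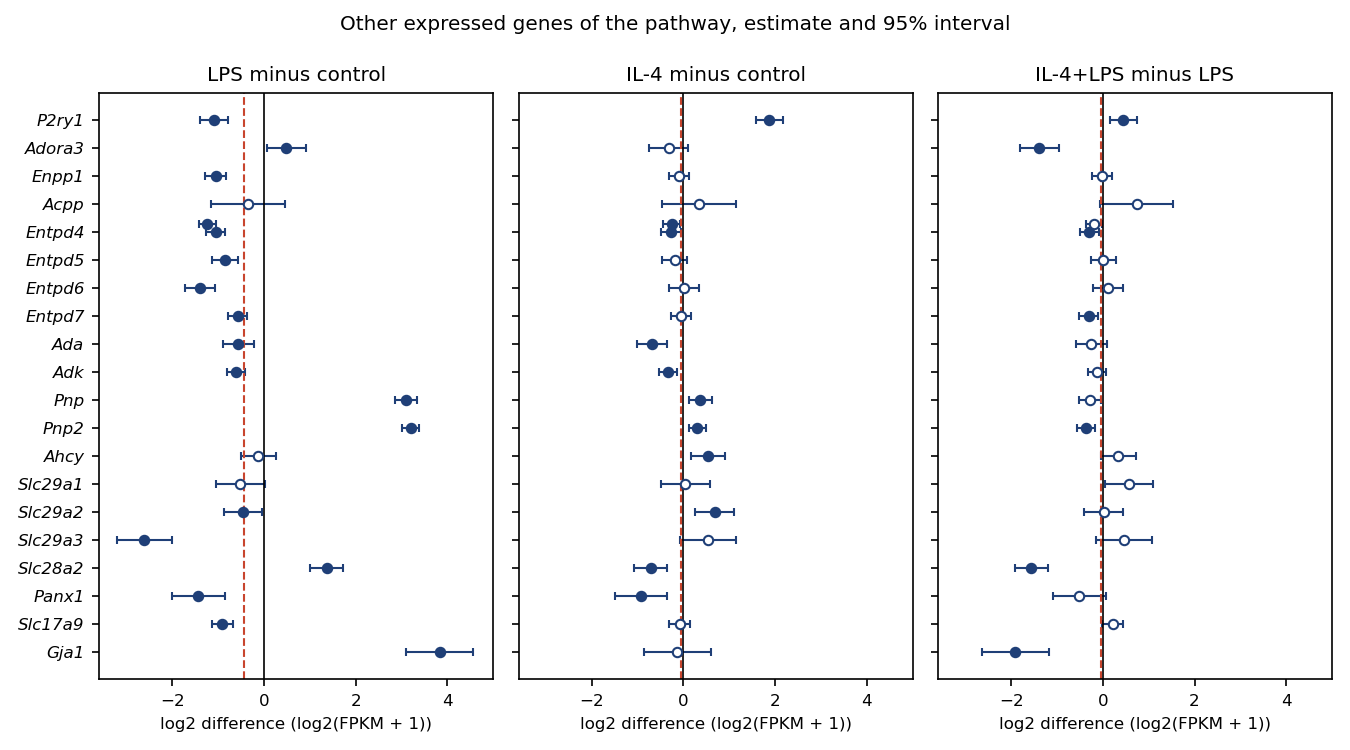
Log2 differences on the log2(FPKM + 1) scale, with 95% intervals (limma, 12 samples), of the 20 expressed genes from the list of other pathway genes in 3 comparisons. Filled points passed an adjusted p of 0.05, open points did not, the dashed red line is the median of all rows, and Entpd4 has 2 rows. Gja1, Pnp and Pnp2 lie to the right after LPS, P2ry1 to the right after IL-4, and Gja1, Slc28a2 and Adora3 to the left in IL-4+LPS minus LPS.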

How the data were processed

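Poly-A selected, unstranded libraries were sequenced as paired reads. According to the submitters' processing notes and the study's methods, the authors mapped them to mm10 with TopHat2 2.0.7 and computed expression with Cufflinks 2.0.2. The deposited tables hold FPKM values as the authors made them, 1 table per sample with 23847 rows. Each value is scaled to what was mapped in that library, and a shift in RNA composition therefore moves all other rows. Fragment counts were not used here and the absolute depth is unknown. Relative depth was read from the steps between values below 0.3 FPKM, and the error of each value is the spread between replicates.

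Rows with at least 1 FPKM in at least 1 of 12 samples were kept (11191 rows), and limma 3.58.1 (R 4.3.3) was run on log2(FPKM + 1) with group means over all 12 samples and an intensity trend. Two-sided p-values were corrected after Benjamini and Hochberg, separately for each comparison, with a threshold of 0.05. On simulated data for LPS minus control over 11191 rows, 99% of 200 changes of 2 on the log2 scale were recovered and 2.94% of calls were false. The changed rows had control means above 2 on that scale, and the noise was independent, with no shift of replicate 1. Adora2a, Adora2b, P2ry12 and P2ry13 lay below that level in control. In the data 1887 rows were called higher and 6462 lower, so these rates do not describe the calls made here. The 10 genes and the gene lists were chosen with earlier results of these data known. Other pathway genes are named if they are among the 3 largest called differences in either direction of a comparison, or if they are expressed and share a role with the 10 genes. Alternatives were a pseudocount of 0.1, no filter, 1 FPKM in at least 3 samples, median scaling, quantile normalization, only the groups compared, the replicate number as a block, a 2-fold minimum and the omission of 1 sample at a time. A fit without replicate 1, and all alternatives for the named pathway genes, were added after seeing the data. Loci are from the files in mm10, with 1 added to the start, and overlapped the GENCODE vM21 gene of the same name for all 10 genes. A marker gene and a neighbouring gene are not reported here. Figures were drawn with matplotlib 3.10.9.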

Additional observations from a re-analysis of the deposited data

Results flagged for a closer look

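For 6 of the 10 genes and 6 rows of the other pathway genes, the LPS difference after IL-4 differed from that without IL-4. The test was of that difference itself, the interaction in limma on log2(FPKM + 1). Of all rows, 4.58% were called positive and 4.63% negative. The interaction was 1.53 for P2ry14 (adjusted p = 0.00151), 1.17 for P2ry13 (0.00122), 0.79 for P2rx7 (0.0376) and 0.70 for Entpd1 (0.0122). It was -2.79 for Adora2b (0.0127), -1.78 for Gja1 (0.0391), -1.43 for P2ry1 (0.00122), -1.06 for Adora3 (0.0342) and -0.74 for P2ry6 (0.0384). It was also negative for Slc28a2 (-0.85, 0.0442), Pnp2 (-0.67, 0.00569) and Pnp (-0.65, 0.0289). The estimates for P2ry1, P2ry13, P2ry14 and Adora2b passed in every alternative run, those for P2rx7, P2ry6, Gja1 and Adora3 did not, and that for Entpd1 was lost only under the 2-fold minimum. For Slc28a2, Pnp2 and Pnp the interaction was not followed through the alternatives gene by gene. With 3 samples in a group no sample was tested for standing apart from its group.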

How the results depend on the processing

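Of 390 values of the 10 genes under the settings tried, 344 kept their direction and side of the threshold, 30 lost a call, 10 gained one and 6 reversed, and of 600 values with 1 sample left out, 541, 43, 6 and 10 did so. The reversed values were P2ry13 in LPS minus control (0.20 with median scaling, 0.41 with quantile normalization), P2ry14 in LPS minus control (0.089 with median scaling), P2ry6 in IL-4 minus control (0.013 with median scaling), P2ry12 in IL-4+LPS minus IL-4 (0.055 with quantile normalization) and Adora2a in IL-4+LPS minus LPS (-0.034 with quantile normalization). With quantile normalization Acpp reversed in LPS minus control (0.19), and Enpp1 in the interaction (-0.0091), in IL-4+LPS minus LPS (0.023) and in IL-4 minus control (0.033). With 1 sample left out, P2ry2 in IL-4 minus control ran from -0.012 to 0.39, P2ry6 there from -0.11 to 0.046, Adora2a in IL-4+LPS minus LPS from -0.28 to 0.38 and in the interaction from -0.17 to 0.49, Acpp in IL-4+LPS minus IL-4 from -0.26 to 0.41 and Enpp1 in IL-4+LPS minus LPS from -0.085 to 0.022. Of the counts, a 2-fold minimum left 11 other pathway rows in LPS minus control, 10 in IL-4+LPS minus IL-4 and 1 in IL-4 minus control, and left 3 such rows and 2 of the 10 genes in IL-4+LPS minus LPS and 3 rows and 3 of the 10 genes in the interaction. With no expression filter 2 of the 10 genes were called in IL-4+LPS minus LPS and 2 pathway rows in the interaction, more rows being tested, and with only the groups compared 3 of the 10 genes were called in IL-4+LPS minus LPS. Without replicate 1 the counts were 7 of the 10 genes in IL-4 minus control, 8 of the 10 genes and 13 pathway rows in IL-4+LPS minus LPS and 10 pathway rows in the interaction. Leaving out 1 sample gave 2 to 6 of the 10 genes (2 without LPS replicate 3) and 4 to 10 pathway rows (4 without LPS replicate 2 or IL-4+LPS replicate 3) in IL-4+LPS minus LPS, 4 to 12 pathway rows in IL-4 minus control (4 without IL-4 replicate 2) and 2 to 6 in the interaction (2 without control replicate 3, IL-4 replicate 2, or LPS replicate 2 or 3). The share of all rows called was not computed for these alternatives, so their counts have no background beside them. The cause of these shifts was not tested. Nothing states that a replicate number marks the same animal or experiment in all groups, and the samples were not treated as paired in the main fit. The correlations of the deviations from the group means were all positive over the 18 pairs with the same number. They ran from 0.00236 to 0.386 (mean 0.124), 11 of them above 0.1, and 9 of 12 samples correlated best, on average, with samples of their own number. The main fit counts any shift shared by a replicate number as spread. With the replicate block, 8 of the 10 genes and 11 pathway rows were called in IL-4+LPS minus LPS, no call of the 10 genes was lost, and 6 of theirs were gained (P2rx7 in IL-4 minus control, P2rx4, P2ry2 and Entpd1 in IL-4+LPS minus LPS, P2ry2 and P2ry12 in the interaction). The share of all rows called with the block was not computed either. Of the named pathway genes, Adora3 in LPS minus control lost its call with the block (adjusted p = 0.051) and Acpp in IL-4+LPS minus LPS gained one (0.00544). Absolute depth is unknown, which limits how far values under 1 FPKM can be read, such as Adora2a without LPS, P2ry12 after IL-4 and P2ry13 with IL-4 alone.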
